A study of Mus musculus with 2 samples.

Results

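The 37 genes described here encode heat shock proteins, the subunits of the cytosolic chaperonin TRiC, the co-chaperones that serve them, and the heat shock factors HSF1 and HSF2. They were chosen as a list of symbols and matched to the deposited gene tables by Ensembl identifier. Of the 37 genes, 36 were found among the 43346 genes of those tables. The remaining gene, Hspa14, carries an identifier in the later annotation that the gene tables do not list, and it was followed through its transcripts.

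The tissue was central nervous system from C57BL/6J embryos of day 14, with no treatment or genotype named in the labels. The samples form 1 group of 2 biological replicates, each a pool of male and female littermates. The replicates are separate biosamples that share a donor identifier, so the spread between them is that of 2 pools. Poly(A)+ RNA above 200 nucleotides, depleted of ribosomal RNA, was sequenced in stranded libraries with paired ends. With 1 group there is no contrast between conditions, and no p-value is given: levels are compared between genes on a scale per length, and the replicates with each other.

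Hsp70 proteins bind short hydrophobic stretches of unfolded chains and let go of them in a cycle driven by ATP. J-domain proteins start that cycle by stimulating ATP hydrolysis, and exchange factors such as the Hsp110 proteins complete it by releasing ADP. Hsp90 takes over partly folded clients, among them kinases and steroid receptors, and the adaptor Stip1 (Hop) hands them over. TRiC is a closed double ring in which actin and tubulin fold, and prefoldin delivers chains to it. Some genes of these families are transcribed in unstressed cells, while others are switched on by HSF1 after heat or other damage to proteins. HSF1 binds heat shock elements, which are inverted repeats of the pentamer nGAAn. In developing brain, neurons make large amounts of tubulin and actin for axons and dendrites.

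Promoters are shown first, because pairs of the units that make up heat shock elements can be read in their letters. Such a pair is short and also occurs in many other genes, as counted below. Windows of 250 bases before and 50 after the start of transcription were taken from RefSeq on GRCm38.p6, which is the mm10 build. They were found for 28 members. There was none for Hspa8, Hspa9, Hspa13, Hsp90aa1, Hsp90ab1, Cct4, Dnajc5, St13 and Hsf1. The pair of units GAANNTTC was searched on both strands, and so was TTCNNGAA; each reads the same on either strand, and the motifs overlap each other where 3 units follow in a row. Capitals mark the match in each sequence below, which is printed 5′ to 3′ on the strand of the gene.
Hspa1a, chr17:34972242-34972271, minus strand: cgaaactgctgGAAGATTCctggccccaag
Hspa1b, chr17:34959324-34959353, minus strand: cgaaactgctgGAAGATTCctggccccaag
Hspb1, chr5:135887791-135887820, plus strand: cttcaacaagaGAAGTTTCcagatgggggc
Hspb1, chr5:135887811-135887840, plus strand: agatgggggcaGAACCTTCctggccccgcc
Hspb8, chr5:116422844-116422873, minus strand: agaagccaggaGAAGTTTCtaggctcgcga
Dnaja1, chr4:40722333-40722362, plus strand: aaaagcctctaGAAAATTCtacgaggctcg
The stretches of Hspa1a and Hspa1b are identical and lie at position -104 from the start of each gene, where 0 is the first transcribed base. Hspb1 has matches at positions -117 and -97. The match of Hspb8 begins at position 2, inside the first exon. GAANNTTC was found in 10 of the 28 members and in 9.04% of the 27025 genes of the table, and TTCNNGAA was found in 6 members and in 9.60% of genes. Either motif was present in 12 members, against 17.0% of genes and 15.1% of the 32851 windows.

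A run of at least 3 units in a row was found in 4 members, against 0.662% of genes: Hspd1, Hspe1, Hsph1 and Dnajb6. Capitals mark 3 units of each run.
Hspd1, chr1:55088055-55088084, minus strand: gcggggccTTCCGGAAGGTTCtagaacgga
Hspe1, chr1:55088056-55088085, plus strand: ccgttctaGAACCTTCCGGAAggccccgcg
Hsph1, chr5:149636279-149636308, minus strand: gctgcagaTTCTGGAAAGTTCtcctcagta
Dnajb6, chr5:29735844-29735873, plus strand: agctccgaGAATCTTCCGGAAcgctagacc
Hspd1 and Hspe1 are transcribed away from each other on chromosome 1, from starts whose windows overlap, so the same element is read here once on each strand. Its run holds a further unit beside the capitals, printed in lower case. The printed matches begin at position -144 in Hspd1, at -84 in Hspe1, and at -46 or -127 in Dnajb6, by start site. In Hsph1 the match begins at 15 or 36, inside the transcribed region. Of the 7 stress-induced cytosolic members, 6 had a window and 5 of those held either motif. Dnajb1 had windows but neither motif, and Hsph1 was the only stress-induced member found with a run of 3 units. Of the 8 constitutive cytosolic members, a class that leaves out Hspa2 and Hspa14, 5 had a window and 1, Dnaja1, held a motif. Of the 7 TRiC subunits with a window, Cct2, Cct5 and Cct6a held a motif. The members are few and were listed for their heat shock role, so these shares are a description of letters and not of factor binding.

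The endoplasmic reticulum stress response element, which is bound by ATF6, was searched by its consensus on both strands. It was found in Hspa5 and in Hsp90b1, and in 0.137% of genes.
Hspa5, chr2:34772020-34772049, plus strand: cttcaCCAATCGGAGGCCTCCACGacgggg
Hsp90b1, chr10:86705632-86705661, minus strand: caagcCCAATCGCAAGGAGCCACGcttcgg
Hsp90b1, chr10:86705527-86705556, minus strand: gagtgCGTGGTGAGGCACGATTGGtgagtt
The second match of Hsp90b1 reads the consensus on the opposite strand. Both genes encode chaperones of the endoplasmic reticulum, and their levels are given below.

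The gene tables held 99528934 expected counts of genes in replicate 1 and 134760822 in replicate 2, of which the members took 0.871% and 0.908%. The lowest member count was 511 in replicate 1, for Hspa2, and 341 in replicate 2, for Hspb1. Neuron and radial glia markers were present in both replicates, with 10 of 10 and 8 of 8 listed genes above 1 TPM, so that the labelled tissue is represented. Markers of muscle, skin and cartilage were also present and were far higher in replicate 1. The summed TPM of 10 skeletal muscle markers was 649 in replicate 1 and 13.4 in replicate 2. Sums, counts and medians of these markers are given beside the small heat shock proteins.

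All 36 matched members reached 1 TPM in both replicates, where 63.4% of the 21474 protein-coding genes did. Of the members, 20 averaged at least 100 TPM, and 4 averaged under 10 TPM, by gene TPM with all transcript models included. Cct6a, the lowest of the 20, stood above 93.9% of protein-coding genes by mean TPM. Hspb8, the highest of the 4, stood above 51.8%. Together the 36 members held 7519.7 TPM in replicate 1 and 8389 TPM in replicate 2. Hspa8 alone made up 31.4% and 37.6% of that sum. Ordered by mean TPM, the members form 35 neighbouring pairs, and in 19 of these pairs the ranges of the replicates overlap. The first 2 places do not overlap each other or the rest: Hspa8, then Hsp90ab1. Hspa5, Hsp90aa1 and Cct5 follow, with ranges that overlap each other. The place of Hspa5 rests on its gene TPM, which is mostly a short model, as given below. At the bottom, Hspa1b, Hspa1a and Hspa2 overlap in turn.

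**Figure D1:**
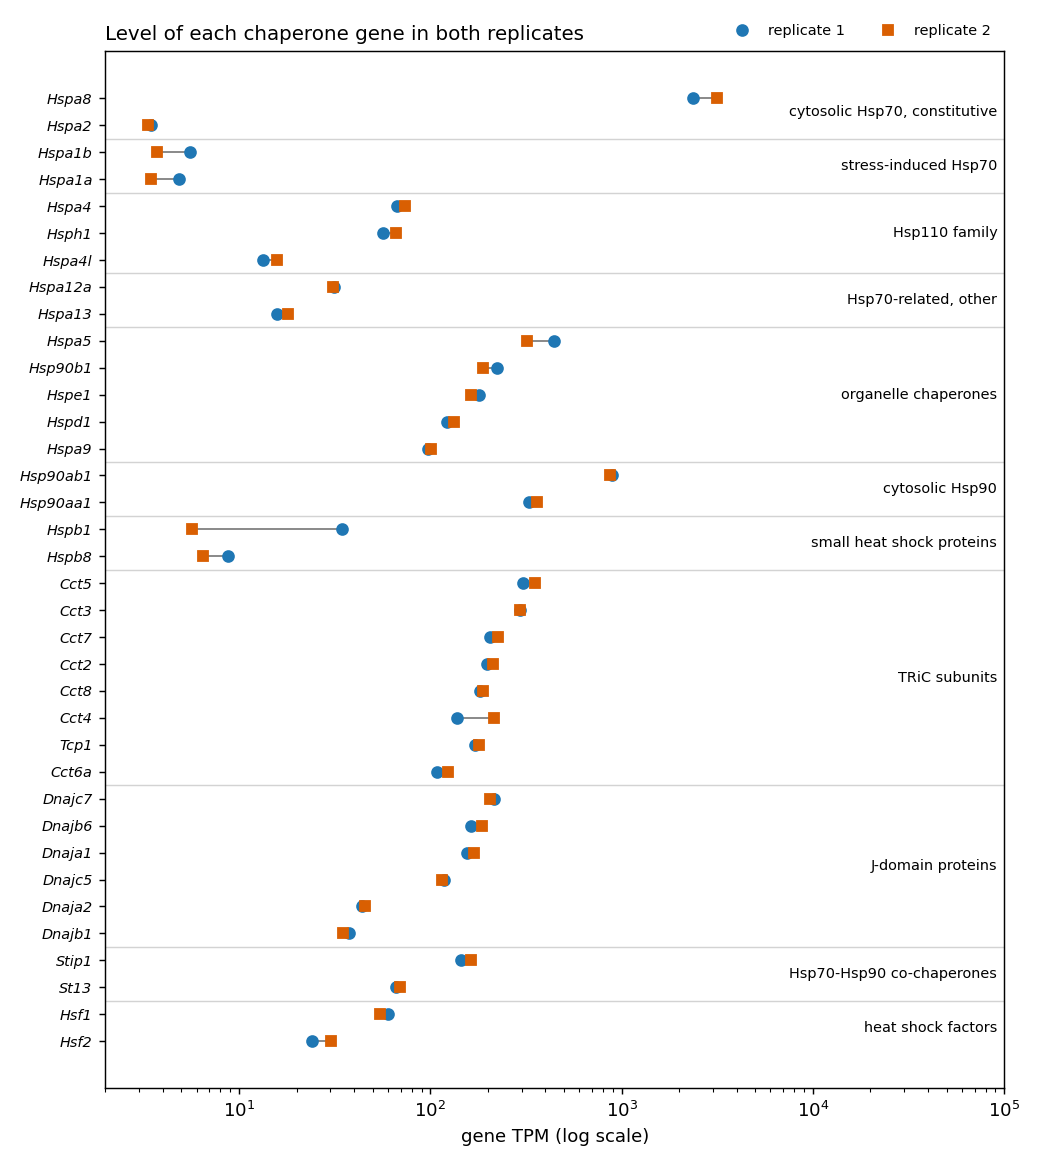
Gene TPM on a logarithmic axis for the 36 matched members, grouped by role; circles are replicate 1, squares replicate 2, and the line joins the replicates. Hspa8 lies highest at 2359.7 and 3158 TPM, the stress-induced Hspa1a and Hspa1b lie between 3.45 and 5.57 TPM, and Hspb1 has the widest gap, 34.6 and 5.66 TPM.

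Hspa8 encodes Hsc70, the constitutive Hsp70 of the cytosol, which also uncoats clathrin vesicles. Its gene on chromosome 9 (40800984 to 40810087, plus strand, mm10) had 2359.7 TPM in replicate 1 and 3158 TPM in replicate 2. Hspa1a and Hspa1b, neighbouring genes on chromosome 17, encode the heat-inducible Hsp70. Hspa1a had 4.83 and 3.45 TPM, and Hspa1b had 5.57 and 3.74 TPM. Both induced genes were a little lower in replicate 2, and neither came near the constitutive gene in either replicate. Hspa8 exceeded the sum of Hspa1a and Hspa1b 227-fold in replicate 1 and 439-fold in replicate 2, which is a log2 ratio of 8.30 ± 0.67 (SD, n = 2).

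Both sides of that ratio depend on how reads were assigned. The main transcripts of Hspa1a and Hspa1b are 99.2% identical over 2201 nucleotides, so reads were divided between them by estimate, and the sum, 10.4 and 7.19 TPM, is firmer than either value. The gene TPM of Hspa8 includes short models that hold no coding sequence. The coding transcript Hspa8-201, of 2394 nucleotides and 646 codons, had 1354 and 1482 TPM, and the processed transcript Hspa8-203, of 606 nucleotides, had 305 and 934 TPM. The replicates therefore lie close for the coding transcript, and most of the gap in gene TPM sits in the short model. With the main transcript alone the log2 ratio to the induced pair was 7.36, and with the mm9 RPKM it was 6.11, both still above 6. Hspa8 further has 8 genes with at least 90% identity over at least 50% of its main transcript, 7 of them pseudogenes, which together had 52.6 TPM.

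The other cytosolic Hsp70 members were far apart. Hspa2, known for its role in male meiosis, had 3.48 and 3.33 TPM and was the lowest member. Hspa14, which encodes a ribosome-associated Hsp70, was measured by transcript only: its coding transcript Hspa14-201 had 47.9 and 53.8 TPM. The tables file it under the identifier of an overlapping gene on the same strand, Gm45902, so reads shared with that gene cannot be told apart. Hspa12a, a distant Hsp70 relative, had 31.5 and 31.1 TPM. Hspa13, a small Hsp70 relative associated with microsomes, had 15.8 and 18.1 TPM.

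Cytosolic Hsp90 comes from a constitutive gene, Hsp90ab1, and an inducible gene, Hsp90aa1. Hsp90ab1 had 891 and 871 TPM, the second highest level of all members. Hsp90aa1 had 327 and 362 TPM, so the inducible gene was still among the 4 highest. The constitutive gene was 2.72-fold and 2.41-fold above the inducible gene, a log2 ratio of 1.36 ± 0.13 (SD, n = 2), with no overlap between the genes. In Hsp90aa1 the coding transcript Hsp90aa1-202, of 733 codons, held 73.8% and 74.9% of the TPM. Hsp90aa1-201, with the same number of codons, held 6.61% and 5.43%.

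The Hsp110 genes encode exchange factors that remove ADP from Hsp70. Hspa4 had 67.3 and 73.8 TPM. Hsph1, the heat-inducible member that carries 3 heat shock units just after its start of transcription, had 56.6 and 66.5 TPM. The ranges of Hspa4 and Hsph1 come within 1 TPM of each other, and the log2 ratio of Hspa4 to Hsph1 was only 0.20 ± 0.07 (SD, n = 2). Hspa4l was lower, at 13.4 and 15.8 TPM, and 51.9% and 50.6% of its TPM lay in a model of 9479 nucleotides that the later annotation does not list.

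J-domain proteins give Hsp70 its clients. The class A proteins Dnaja1 and Dnaja2 had 156 and 170.1 TPM and 43.8 and 45.7 TPM. The heat-inducible class B protein Dnajb1 had 37.6 and 35.1 TPM, so that Dnaja2 stood above it by a log2 ratio of 0.30 ± 0.12 (SD, n = 2). Dnajb6, which suppresses aggregation of polyglutamine proteins, had 163 and 186 TPM. Its short coding transcript Dnajb6-203, of 242 codons, had 135 and 159 TPM, while the long Dnajb6-201, of 365 codons, had 18.5 and 18.3 TPM. The short form thus held most of the estimated TPM in both replicates. This split was not checked against spliced reads, of which Dnajb6 had only 835 on mm9. Dnajc5 encodes cysteine string protein of synaptic vesicles and had 117 and 115 TPM. Its coding transcripts together held 62.2% and 61.0% of that. Dnajc5-204, typed as a target of nonsense-mediated decay, held 27.7% and 25.5%. Dnajc7, which binds both Hsp70 and Hsp90, had 216 and 205 TPM, of which its coding transcript held 39.0% and 40.9%.

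The adaptors between Hsp70 and Hsp90 were both well above the induced Hsp70 genes. Stip1 had 144 and 163 TPM. St13, the Hsp70-interacting protein Hip, had 66.3 and 69.8 TPM. Among 15 further Hsp90 co-chaperones, all reached 1 TPM in both replicates, from Tomm34 at 30.4 and 26.8 TPM to the immunophilin Fkbp4 at 216 and 247 TPM. Among 10 exchange factors of Hsp70, the highest was Bag6 at 273 and 309 TPM. The lowest was Bag3, an HSF1 target of muscle and stressed cells, at 5.98 and 2.66 TPM. Of 19 further J-domain genes, all reached 1 TPM in both replicates, from Dnaja4 at 6.14 and 5.04 TPM to Dnajc9 at 90.7 and 108 TPM.

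Taken by class, the 8 constitutive cytosolic members had a median of 149.8 TPM in replicate 1 and 166 TPM in replicate 2. They were Hspa8, Hspa4, Hsp90ab1, Dnaja1, Dnaja2, Dnajc7, St13 and Stip1. The constitutive Hsp70 genes Hspa2 and Hspa14 were not placed in the class. Hspa2, at 3.48 and 3.33 TPM, lay below every stress-induced member in each replicate. The 7 stress-induced members, Hspa1a, Hspa1b, Hsph1, Hsp90aa1, Dnajb1, Hspb1 and Hspb8, had a median of 34.6 TPM and 6.45 TPM. On the log2(TPM + 1) scale, which understates differences of low genes, the medians differed by 2.08 in replicate 1 and 4.49 in replicate 2. The mean difference was 3.29 ± 1.70 (SD, n = 2). The wide gap between replicates comes from the middle of the short induced list, where Hspb1 stands in replicate 1 and Hspb8 in replicate 2. Without Hspb1 the mean difference was 3.16 ± 0.28 (SD, n = 2), a choice made after seeing the data.

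The classes did not separate gene by gene. Hsp90aa1 lay above 6 of the 8 constitutive members, all but Hspa8 and Hsp90ab1, and Hsph1 and Dnajb1 lay beside Hspa4 and Dnaja2. The induced Hsp70 genes and the small heat shock proteins made up the low end of the classes. Hspa2, which is in neither class, was lower still. Of 10 HSF1 targets that are no members, all reached 1 TPM in both replicates. The highest was the polyubiquitin gene Ubb at 3335 and 3904 TPM, and the lowest was Bag3.

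TRiC is built from 8 different subunits, each present once in either ring, and all 8 genes were high. Cct5 had 306 and 353 TPM, Cct3 had 294 and 293 TPM, and Cct7 had 206 and 225 TPM. Cct2 followed at 198 and 212 TPM, Cct8 at 182 and 188 TPM, and Tcp1 at 172 and 179.5 TPM. Cct4 had 138 and 214 TPM, and Cct6a was lowest at 108 and 123 TPM. The median over subunits was 189.96 TPM in replicate 1 and 213 TPM in replicate 2. The highest subunit exceeded the lowest 2.82-fold and 2.87-fold. The 6 prefoldin subunits, which also form a complex of unlike subunits, spread 7.23-fold and 6.99-fold, from Pfdn4 at 48.4 and 53.95 TPM to Pfdn5 at 349 and 377 TPM. Which complex spread more depends on the measure: in the authors' mm9 RPKM, averaged over both fields, prefoldin spread 2.58-fold and TRiC 4.28-fold. In the list of prefoldin and phosducin-like partners the lowest gene was Pdcl, at 38.3 and 44.9 TPM.

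Cct4 was the subunit with the widest gap between replicates, and the gap was not in its coding transcript. Cct4-204, of 539 codons, had 96.0 and 104 TPM. Cct4-203, a model of 465 nucleotides typed as a target of nonsense-mediated decay, had 21.7 and 86.5 TPM. With only the main transcript of each subunit, Cct4 became the lowest subunit in both replicates and Cct5 remained the highest, at 243 and 269 TPM. The highest exceeded the lowest 2.54-fold and 2.58-fold on that measure. In Cct3 a retained-intron model of 472 nucleotides, Cct3-203, had 85.1 and 62.1 TPM beside 197 and 219.9 TPM of the coding transcript.

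**Figure D2:**
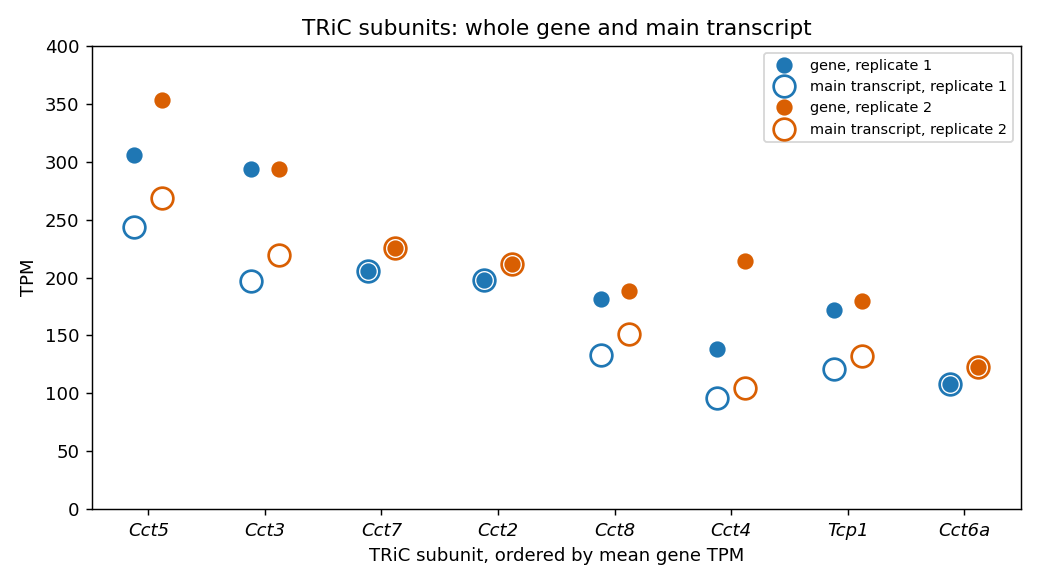
TPM of the 8 TRiC subunits in replicate 1 (blue) and replicate 2 (orange); filled points are the whole gene and open circles the transcript with the most expected counts. The filled points of Cct4 lie at 138 and 214 TPM, while its open circles lie at 96.0 and 104 TPM.

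Taken as sums, the clients of TRiC were far more abundant than its subunits. Of 14 actin and tubulin genes, Tuba1a was highest at 8422 and 9297 TPM and Tuba4a lowest at 5.75 and 5.38 TPM. The cytosolic actins and the listed tubulins summed to 26932 and 29589 TPM, and the 8 subunits summed to 1605 and 1789 TPM. The client sum was 142 and 139 times the median TRiC subunit, which sets many genes against the level of a single subunit. Not every client gene was high: Tuba1c, Tubb6, Tubg1 and Tuba4a lay below Cct6a, the lowest subunit, in both replicates. Tubb4a lay below the median subunit. The 6 tubulin folding cofactors, which assemble the tubulin dimer after TRiC, ranged from Tbcc at 21.5 and 20.7 TPM to Tbca at 301 and 320.4 TPM.

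In the endoplasmic reticulum, Hspa5 encodes BiP, the Hsp70 of that compartment, and Hsp90b1 encodes its Hsp90, Grp94. Hspa5 had 445 and 321 TPM, and Hsp90b1 had 223 and 189.7 TPM. Both were lower in replicate 2, with log2 ratios of -0.46 and -0.31. The gene TPM of Hspa5 was mostly a short model: Hspa5-204, of 477 nucleotides and typed as a target of nonsense-mediated decay, held 56.4% and 56.5% of it. The coding transcript Hspa5-202, of 655 codons, held 83.9% and 82.8% of the expected counts but only 181 and 129.6 TPM. By coding transcripts, Hspa5 and Hsp90b1 (197 and 153 TPM for Hsp90b1-201) had overlapping ranges and Hspa5 was the lower in each replicate, where the gene values do not overlap and Hspa5 is the higher.

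Of 15 further genes of endoplasmic reticulum folding and stress with enough counts, 14 had a log2 ratio below 0 and the median was -0.19, where 45.5% of 14340 genes lay below 0. Calr, the highest, had 487 and 389 TPM, and Atf6, the lowest of the 15, had 8.34 and 7.82 TPM. Trib3, a target of the stress factor CHOP, had too few counts for that comparison and stood lowest in the list at 0.52 and 0.32 TPM. Beside these values stand those of matrix-producing cells: the 6 markers of fibroblasts and meninges summed to 933 TPM in replicate 1 and 403 TPM in replicate 2, and all 6 had a log2 ratio below 0. None was at 0 in either replicate. Their part in the lower endoplasmic reticulum values was not tested.

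In mitochondria, Hspa9 (mortalin) pulls chains through the import channel, and Hspd1 (Hsp60) with its lid Hspe1 (Hsp10) folds them. Hspa9 had 97.9 and 100.5 TPM, Hspd1 had 122 and 133 TPM, and Hspe1 had 179.8 and 163 TPM. Hspe1 stood 1.47-fold and 1.23-fold above Hspd1, from which it is transcribed in the opposite direction. In the authors' mm9 RPKM the order was turned, with Hspe1 at 6.71 and 7.52 and Hspd1 at 9.95 and 9.32. The mitochondrial genes summed to 399.9 and 397 TPM and differed little between replicates.

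**Figure D3:**
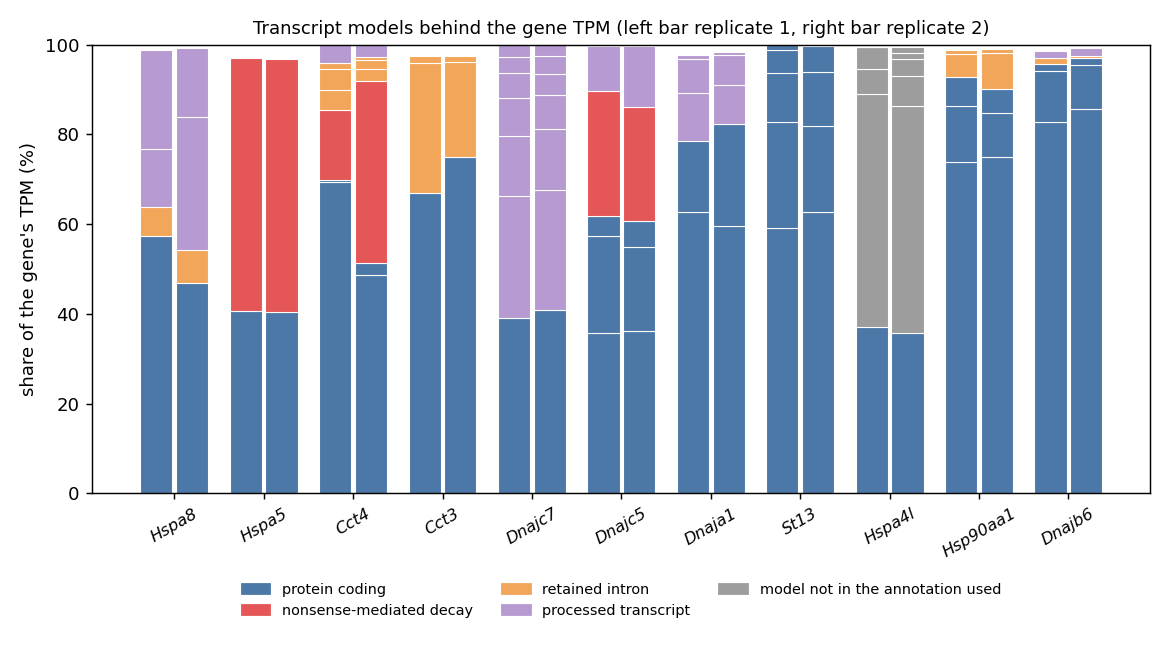
Share of a gene's TPM, in percent, in each transcript model holding at least 1% in either replicate, for the members without a dominant transcript and for Cct3, Hsp90aa1 and Dnajb6; the left bar is replicate 1, the right bar replicate 2, and colours give the annotated type. Nonsense-mediated decay models hold 56.4% and 56.5% of Hspa5 and 15.7% and 40.4% of Cct4, where Cct4-203 is the model.

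The transcript tables show how far gene TPM can be read as coding mRNA. In 8 of the 37 members the most abundant transcript held under 60% of the TPM in at least 1 replicate: Hspa8, Hspa5, Cct4, Dnajc7, Dnajc5, Dnaja1, St13 and Hspa4l. The most abundant transcript was the same in both replicates for each of them. It was protein coding in 34 of the 37 members, and the exceptions were Hspa5, Hspa4l and Cct6a. Cct6a has a single model in these tables, and the later annotation types it as a processed transcript. A single model was listed for 12 members, and for those the tables cannot show splicing.

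Among the small heat shock proteins, which hold unfolded chains without using ATP, Hspb1 differed most between replicates. Hspb1 (chromosome 5, 135887919 to 135889563, plus strand, mm10) had 34.6 TPM in replicate 1 and 5.66 TPM in replicate 2. Replicate 1 was 6.11-fold higher, with 1545 and 341 expected counts behind the values. The log2 ratio on TMM-scaled counts was -2.59. On mm9 the fields gave 0.378 and 2.14 RPKM in the authors' table, a gap of 5.66-fold, though no label ties the fields to the replicates. Hspb8, which works with Bag3 in autophagy of damaged muscle proteins, had 8.73 and 6.45 TPM and a log2 ratio of -0.43.

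Hspb1 was the only member at least 2-fold lower in replicate 2, 1 of 36, where 3.95% of the 14340 genes with a mean of at least 200 counts were. No member was at least 2-fold higher, and 0.286% of genes were. At a threshold of 1.5-fold Hspb1 was again the single member called lower, against 8.27% of genes, and none was called higher, against 1.38%. The median log2 ratio was 0.09 over the 36 members and 0.02 over the 14340 genes, and the median size of the ratio was 0.15 in both sets. All 8 TRiC subunits had a ratio above 0, with a median of 0.14, where 54.5% of genes lay above 0.

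Other genes grouped here with the small heat shock proteins were mixed. Hspb6, at 6.47 and 6.91 TPM, and Hspb11, at 22.5 and 23.8 TPM, had log2 ratios slightly above 0, while 4 others were lower in replicate 2. Cryab, the αB-crystallin of muscle and lens, had 10.01 and 2.57 TPM and a log2 ratio of -1.94. Hspb2, its muscle neighbour, had 6.73 and 0.22 TPM, Hspb3 had 2.57 and 0.26 TPM, and Hspb7 had 0.51 and 0.06 TPM. The counts of Hspb2, Hspb3 and Hspb7 in replicate 2 were 12, 13 and 14. Of the 16 further heat shock genes, the highest was Serpinh1, the collagen chaperone Hsp47, at 379 and 199.7 TPM. The lowest was the lens gene Cryaa, with 1 count in replicate 1 and none in replicate 2, where 0 counts allow up to 3 counts.

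Markers of muscle, skin and cartilage were lower in replicate 2, as Hspb1 was. All 10 skeletal muscle markers were at least 2-fold lower in replicate 2, with a median log2 ratio of -5.74. All 8 markers of skin and epithelia were at least 2-fold lower, and their summed TPM was 152 in replicate 1 and 19.6 in replicate 2. Of 7 cartilage and bone markers, 6 were at least 2-fold lower, and the sum was 1053 and 238 TPM. None of these markers was at 0 in either replicate. The neuron markers, by contrast, had a median log2 ratio of 0.06 with none of 10 at least 2-fold apart. They were not uniform, with 6 above 0 and 4 below, the lowest being Nefm at -0.72 and Nefl at -0.55. For 8 markers of radial glia and progenitors the median was 0.22, with 7 above 0 and none 2-fold apart. Not all other cell types were lower in replicate 2. The median was -0.13 for 4 blood vessel markers and 0.12 for 4 markers of microglia and leukocytes with enough counts, with none 2-fold apart. For 6 red blood cell markers it was -0.93. The part of other tissues in the Hspb1 values was not tested, and in bulk tissue fewer cells of a type and less RNA per cell cannot be told apart. Bag3 (log2 ratio -1.16) and Tubb6 (-1.13) were the other genes of the exchange factor and client lists at least 2-fold lower.

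**Figure D4:**
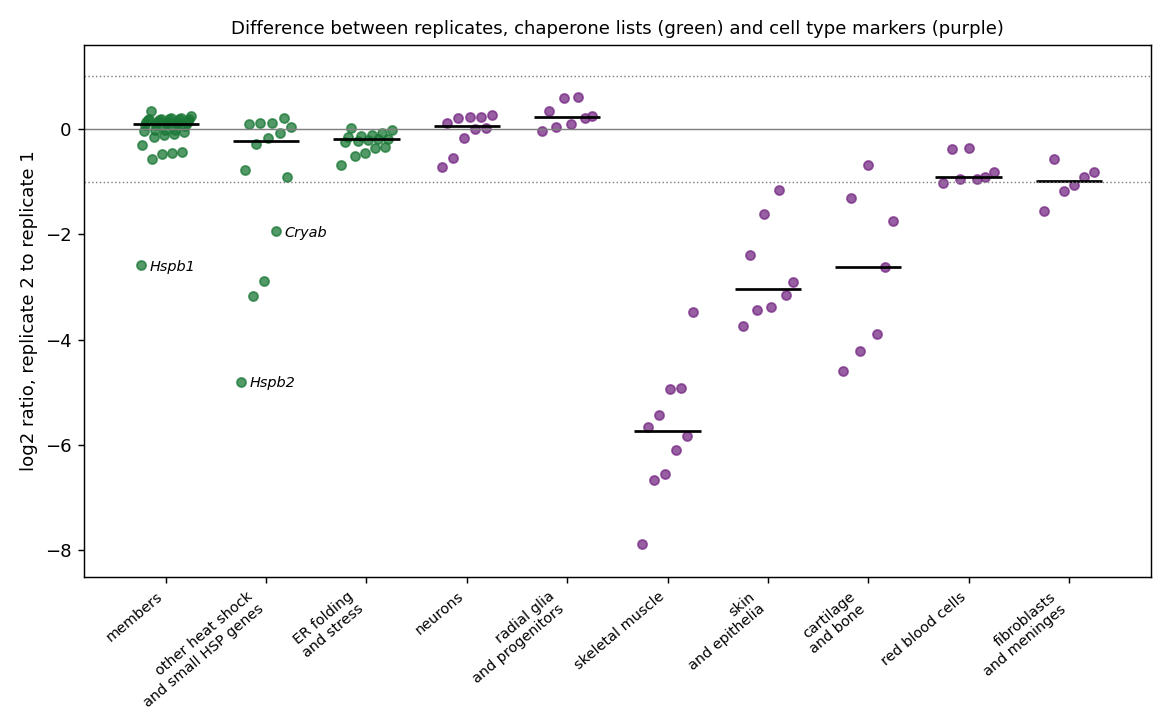
Log2 ratio of replicate 2 to replicate 1 for each gene of the chaperone lists (green) and of 7 cell type marker lists (purple); bars are medians, dotted lines mark 2-fold, and genes of the other lists need a mean count of 20. Hspb1 at -2.59 is the only member beyond 2-fold, and the skeletal muscle markers have a median of -5.74.

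The heat shock factors were present at moderate levels. Hsf1, the main activator of the heat shock response, had 60.4 and 54.4 TPM. Hsf2, which takes part in brain development, had 24.0 and 30.3 TPM. The ranges of the factors do not overlap. The deposited mm10 transcript tables list 1 model for each, Hsf1-201 and Hsf2-201, and neither contains the alternative exons that distinguish the known isoforms, so splicing was read from the mm9 junctions. Those counts come in 2 fields that no label ties to a replicate, and the exact 95% intervals cover counting error only.

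Hsf1 has an alternative exon of 66 nucleotides (chromosome 15, 76330561 to 76330626, mm9) that separates the α and β forms. In field 1, 343 reads joined the exon on its upstream side and 195 on its downstream side, and 187 skipped it. In field 2 the counts were 421, 213 and 251. Inclusion, taken over both sides, was 59.0% and 55.8%, so both forms were common. The sides differ: the upstream junction gave 64.7% (60.5% to 68.8%) in field 1, and the downstream junction gave 51.0% (45.9% to 56.2%). In field 2 they gave 62.6% (58.9% to 66.3%) and 45.9% (41.3% to 50.6%). A second Hsf1 exon, of 84 nucleotides (76329562 to 76329645), was included in 12.2% and 11.1%. Its sides differ as well, with 18.02% and 16.3% upstream and 5.50% and 5.20% downstream.

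The alternative exon of Hsf2, of 54 nucleotides (chromosome 10, 57228867 to 57228920, mm9), was included in 13.8% and 12.9%. Here both sides gave close values, 13.7% (10.6% to 17.4%) and 13.9% (10.8% to 17.6%) in field 1. Skipping was therefore the major form of Hsf2. For the 66-nucleotide exon of Hsf1, joining reads were the majority at the upstream junction, and neither form was clearly the larger at the downstream junction. Each exon has a length divisible by 3 and keeps the reading frame. A junction that leaves out the 125-nucleotide exon of Hsf1 had 78 reads, against 887 for the annotated junction that ends at the same site.

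**Figure D5:**
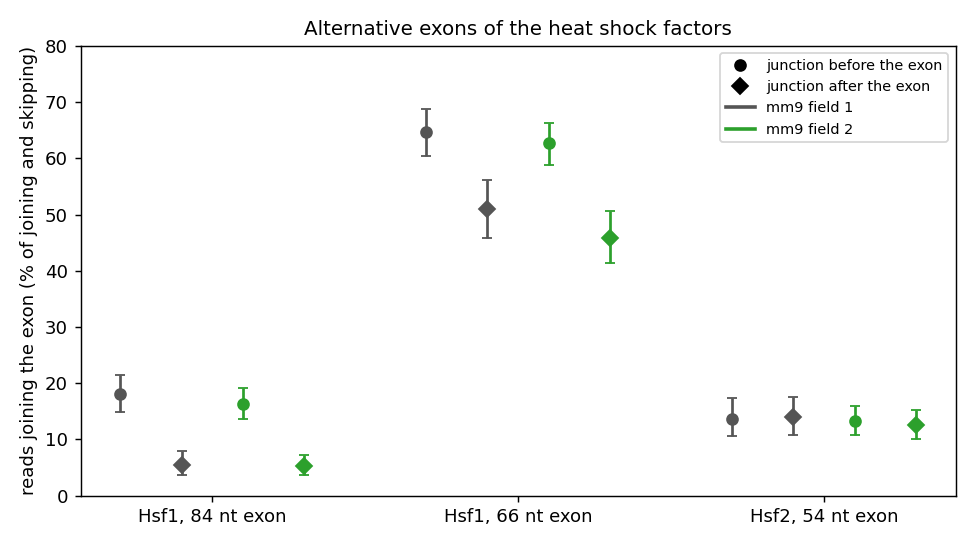
Percent of reads joining an alternative exon, out of joining and skipping reads, at the junction before (circles) and after (diamonds) the exon; grey is mm9 field 1, green is field 2, and bars are exact 95% intervals. The 66-nucleotide exon of Hsf1 lies between 45.9% and 64.7%, and the exon of Hsf2 between 12.5% and 13.9%.

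Levels on mm9 were set against those on mm10. The mm9 RPKM was lower than the mm10 TPM by a median log2 of -3.08 over 13787 protein-coding genes, and 95% of genes lay between -4.28 and -2.30. Hspa1a at -1.56 and Hspa1b at -1.34 lay above that range, so the induced pair was relatively higher on mm9. Hspe1 at -4.59 and Dnajb6 at -4.55 lay below it. Dnajb6 also had only 835 junction reads on mm9, of which 20.6% joined ends that the mm9 annotation does not pair, against 0.19% for Hspa8.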

How the data were processed

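RNA-seq values of 2 replicates of 1 group were used. Per the text deposited with them, the mm10 tables use GENCODE M4; the aligner is not given in the sources used here, nor is the quantifier. The deposited expected counts are estimates per gene or transcript and were rounded for the comparison of replicates. The deposited TPM give each gene's share of all transcripts, spike-ins counted too, and the deposited FPKM are per kilobase of effective length and scaled by the number of fragments. The deposited percent of a gene's TPM in each transcript was taken from the transcript tables. The authors' mm9 RPKM (Ensembl release 65) and junction read counts come in 2 fields not tied to replicates. The authors' RPKM are given with no SD.

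Symbols, positions and transcript types came from GENCODE M21 by stable identifier, promoter sequences from RefSeq (GRCm38.p6), and near-identical copies from blastn 2.17.0 (at least 90% identity over at least 50% of the main transcript, the latter set after seeing the data). Counting is not stated to use strand, so overlapping genes such as Hspd1 and Hspe1 may share reads. Replicates were compared with TMM factors (edgeR 4.0.16, prior count 1) over genes averaging at least 200 expected counts. The calculation was tested on simulated counts with sampling noise only and as many genes raised as lowered. That checks the arithmetic and not the scaling of replicates that differ as these do. DESeq2 1.42.0 size factors were an alternative. The replicates differed far beyond sampling noise (chi-square per degree of freedom 141 over 19517 genes) and were counted as 2 samples. Total expected counts, spike-ins included, were 102727538 and 138440954, and 0 counts allow up to 3, or 0.0301 and 0.0223 CPM.

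The members, the gene lists and the classes were chosen with earlier results of these data known. All members are given, and from the lists of related genes the highest, the lowest and each gene at least 2-fold apart. Marker lists are given by sums, counts and medians. Alternatives were FPKM, annotated lengths, mm9 RPKM, other pseudocounts, thresholds and scalings, and each replicate alone. Proteins were not analysed here. Python 3.11.15, pandas 2.3.3, numpy 2.4.6, scipy 1.17.1 and matplotlib 3.10.9 were used.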

Additional observations from a re-analysis of the deposited data

How the results depend on the processing

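Among the alternatives, 57 values kept their direction and stayed within the spread of the replicates, within 1.5 times for a count, or within 0.1 for the median log2 ratio of the members, which ranged from 0.06 to 0.14. Part of these could not move, so their number is no measure of robustness. Either of 2 replicates alone always lies within their SD of the mean, and FPKM leaves ratios within a replicate unchanged but for rounding. A lower TPM threshold or no count filter added nothing, because all 36 members already passed. The other 11 moved. With mm9 RPKM the log2 ratio of Hspa8 to the induced pair was 6.11, that of Hsp90ab1 to Hsp90aa1 was 1.79, the TRiC median was 21.7 RPKM and the highest TRiC subunit exceeded the lowest 4.28-fold. With the main transcript only, an alternative added after seeing the data, these were 7.36, 1.73, 173 TPM and 2.56-fold. The TRiC median was 123 as FPKM and 235 TPM over annotated lengths, the former on another scale than TPM. A heat shock element of 3 units was found in 4 members in place of 12. None of the ratios or differences fixed for these alternatives reversed, but the orders of Hspe1 and Hspd1 and of TRiC and prefoldin spread turned on mm9, and that of Hspa5 and Hsp90b1 with the main transcript. Each replicate alone gave class differences from 2.08 to 4.49, with Hspb1 and Hspb8 in the middle of the induced list. The 2-fold call of Hspb1 held under DESeq2 size factors, total counts and spike-ins.

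No paired analysis was possible because the study has a single group. With 2 pools and no condition the data cannot show a response to stress. Depth limits few members: Hspa2, Hspa1a, Hspa1b, Hspb1 and Hspb8 had the lowest counts, from 341 to 1545. TPM of short models rests on small effective lengths, reads of near-identical copies are divided by estimate, and poly(A) selection bears on transcripts without a tail.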
